A study of Mus musculus with 54 samples.

Results

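The genes described here encode the proteins that take up fatty acids and oxidize them: transport into the cell, activation to acyl-CoA, the carnitine shuttle into mitochondria, the beta-oxidation spiral in mitochondria and in peroxisomes, and the transfer of electrons to the respiratory chain. The rule that lists them goes by gene name and role and uses no measured value, although it was drawn up with earlier results of these data known. The list holds 32 genes of 18759 gene symbols on the array, and 29 of them were measured. Acsl1 had no probe set carrying its symbol in the annotation used here, and Cpt1b and Acadvl had only a probe set shared with another symbol, so no value is given for these 3.

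Beta-oxidation shortens an acyl-CoA by removing acetyl-CoA units, through a repeated cycle of dehydrogenation, hydration, a second dehydrogenation and thiolysis. Long-chain acyl groups reach the mitochondrial matrix only as carnitine esters, and Cpt1 forms these esters in the step that malonyl-CoA inhibits. Peroxisomes start on very long and branched chains and hand shortened products to mitochondria, and nuclear receptors of the PPAR family are known activators of many genes of both routes in liver, muscle and fat.

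Total RNA from 7 tissues of C57BL6 mice, a common inbred laboratory strain, was hybridised to Affymetrix gene arrays, 54 in all. Mice of the swim groups entered training at 11 to 12 weeks of age with 9 days of acclimation, in which daily sessions were lengthened in steps of 10 min, and then swam for 3 weeks in 2 daily sessions of 90 min separated by 4 h. Control mice had the same strain. The labels give an age of 14 weeks for control and swim mice alike, and do not describe how controls were handled. Start age, acclimation and weeks of swimming, taken in sequence, run past 14 weeks, so the age at collection is uncertain. Each tissue had 4 control and 4 swim arrays, except liver with 3 controls and muscle with 3 swim arrays, and the comparison asks what a course of swim training changed in each tissue. The labels do not state sex, the time between the last swim and tissue collection, which muscle or fat depot was sampled, or whether the arrays of different tissues came from the same mice, so p-values measure only the spread between these samples.

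Values are log2 levels, log2(signal + 16), and every fold change is on that scale, which understates changes of weak genes. A gene is called changed in a tissue where the adjusted p of limma was under 0.05 over all genes tested there. The level of one gene is not set against that of another, because probe sets differ in response. In whole tissue, fewer cells of a type and less RNA per cell cannot be told apart.

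Markers of each labelled tissue were high in it, such as Alb in liver at 13.30 to 13.49 and Ckm in muscle at 14.00 to 14.06. Several arrays stood apart from their groups in the transcripts of other cell types. In subcutaneous fat, swim array 22 held kidney transcripts, with a level of 15.24 for the kidney gene Umod against 5.01 to 5.55 on the other arrays of that tissue, and swim array 23 held muscle transcripts. B cell genes were high in subcutaneous fat control arrays 18, 19 and 20, with Cd79a between 11.13 and 11.26, lower at 8.60 and 9.87 on swim arrays 22 and 23, and 4.43 to 5.19 on control 17 and swim arrays 21 and 24. Liver control 52 held muscle transcripts, with Ckm at 8.32 against 5.66 and 6.01 on the other controls. Spleen control 26 held hepatocyte transcripts, with a mean of 9.48 for 8 hepatocyte markers against 4.76 to 7.28 on the other spleen arrays. In muscle, slow fibre markers averaged 7.46 on control 42 and 8.33 on swim 45, and 10.32 to 11.18 on the other 5 arrays. The deposited intensities were not on one scale, and 75th percentiles of arrays of one group differed by up to 1.89-fold.

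Promoter windows give the sequence context of the genes. RefSeq start sites on GRCm38.p6 gave a window of 300 bases, 250 before and 50 after the start, for 25 of the 29 measured genes. Nuclear receptors of the PPAR family bind as heterodimers with RXR to direct repeats of a hexamer with 1 base between them, and the idealised motif AGGTCANAGGTCA was searched on both strands with up to 2 mismatches among its 12 fixed letters. It matched in the windows of 5 of the 25 genes, and in 3.86% of the 32851 windows of all genes in the table. None of the 5 matches was exact, and 13 windows of the whole table held an exact match. These 5 sites are shown with 8 flanking bases on each side, read 5′ to 3′ on the strand of the gene, with the matching 13 bases in capitals.
Cd36, minus strand, chr5:17835939-17835967, match on the opposite strand: tggttctcTGGCCTCTGACTTacttggat
Ucp3, plus strand, chr7:100472932-100472960: tcagaattAGGTTTCAGGTCAgctggtgc
Echs1, minus strand, chr7:140116484-140116512: gcccgctcAGGTCACGGGTCCacccctta
Etfa, minus strand, chr9:55512300-55512328, match on the opposite strand: gcacacccTTACCTTTGCCCTactcccaa
Slc25a20, plus strand, chr9:108662134-108662162: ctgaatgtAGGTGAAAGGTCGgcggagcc
The Slc25a20 match begins 7 bases into the transcript, and the others lie upstream of the start. A match describes letters and is not evidence of binding.

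Hadha and Hadhb encode the alpha and beta subunits of the mitochondrial trifunctional protein, and their windows share bases, because the genes lie head to head on opposite strands with 272 bases between their start sites. The shared stretch, chr5:30155003-30155230 on GRCm38.p6, is shown on the plus strand, the strand of Hadhb, because both subunits are described in the results that follow. It holds 228 bases, has a GC content of 57.0%, and had no match to the motif.
Hadha and Hadhb, shared upstream stretch: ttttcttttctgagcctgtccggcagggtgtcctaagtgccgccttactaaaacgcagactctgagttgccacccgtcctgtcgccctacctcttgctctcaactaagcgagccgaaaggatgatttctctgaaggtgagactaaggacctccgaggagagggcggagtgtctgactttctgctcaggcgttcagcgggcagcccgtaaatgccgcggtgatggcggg
Across the 25 windows GC content ran from 43% in Cd36 to 70.3% in Acadl, with a median of 60.7% against 52.7% over all windows.

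At rest, in the 27 control arrays scaled together, the genes were highest in liver, visceral fat, muscle or kidney and lowest, in most cases, in brain. Liver was the highest tissue for 11 of the 29 genes, visceral fat for 9, muscle for 5 and kidney for 4, and no gene was highest in subcutaneous fat, spleen or brain. The controls behind the subcutaneous fat means differed in B cell transcripts. Scaled within that tissue, B cell markers averaged 5.11, 10.86, 10.78 and 10.83 on its 4 controls. The 29 oxidation genes averaged 10.07, 9.77, 8.88 and 9.26 on the same arrays. The part of these cells in the resting levels and ranks of subcutaneous fat was not tested. Over all 14928 genes tested the highest tissue was liver in 12.3%, visceral fat in 12.7%, muscle in 19.5% and kidney in 11.2%. It was spleen in 21.4%, brain in 19.6% and subcutaneous fat in 3.3%. The tissue of highest level passed the test against the second one for 12 of the 29 genes and did not for the other 17, so the tally ranks means, and the highest tissue that passed was liver for 5 genes, visceral fat for 3, muscle for 2 and kidney for 2. The 3 genes Fabp3, Acaa1b and Ucp3 lay under the signal filter in several tissues and have no lowest tissue. Among the other 26, brain was lowest for 20, spleen for 3 and muscle for 3. Over all 14928 genes, with none set aside for low signal, the lowest tissue was brain in 27.3%, spleen in 17.95% and muscle in 13.2%.

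**Figure D1:**
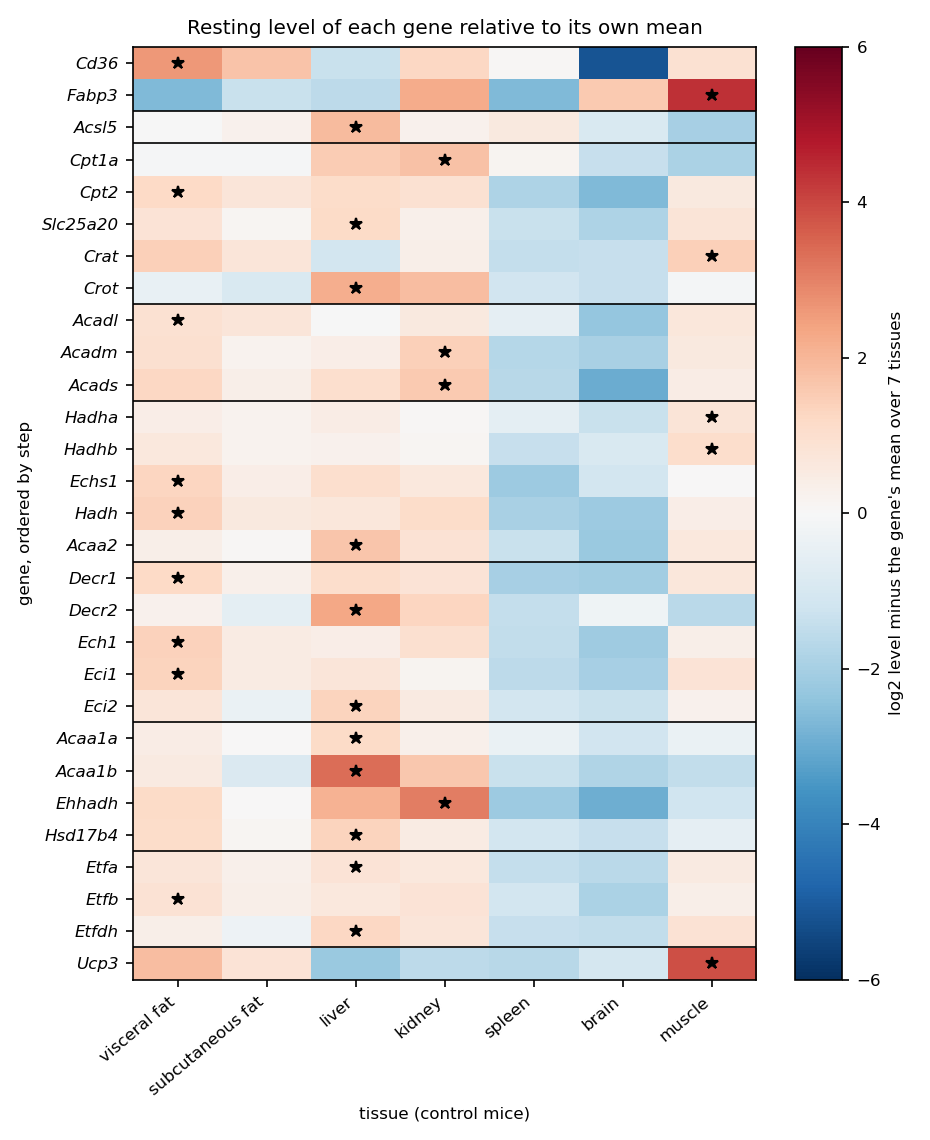
Resting level of each of the 29 measured genes in the 7 tissues (columns), as the mean log2 level of 4 control arrays (3 in liver) minus that gene's own mean over the 7 tissues. Red marks a tissue above the gene's mean, blue one below, and a star the tissue of highest mean, which was liver for 11 genes, visceral fat for 9, muscle for 5 and kidney for 4 and passed the test against the second tissue for 12 of the 29. Rows are grouped by step of the pathway.

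The difference between tissues passed limma's F test for 29 of 29 genes, with adjusted p at most 5.45e-09, in a comparison that 99.2% of all genes passed. Over the 24 genes above the signal filter in all 7 tissues, the gap between the highest and the lowest tissue ranged from 2.11 to 4.57 log2. The median over all 29 genes was 3.46, against 1.99 over all genes tested. Over the 7 tissue means, which share the scaling of their arrays, the median correlation between pairs of the genes was 0.75, as a description.

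Both proteins at the start of the route, an uptake receptor and a cytosolic binding protein, had wide gaps between tissues, and both lay under the signal filter in at least 1 of them. Cd36, the scavenger receptor that takes up long-chain fatty acids, was at 12.91 ± 0.11 (SD, n = 4) in visceral fat, 12.02 ± 0.56 in subcutaneous fat, 11.56 ± 0.07 in kidney, 11.22 ± 0.29 in muscle, 10.42 ± 0.10 in spleen and 8.99 ± 0.24 (n = 3) in liver. In brain it was at 5.17 ± 0.21, among the lowest 40% of probe sets that the tests within a tissue leave out. Of the neighbours in that order only kidney and muscle did not pass the test of their difference, with an adjusted p of 0.115. Fabp3, the cytosolic fatty acid binding protein of heart and muscle, was at 11.77 ± 0.26 in muscle, 9.65 ± 0.14 in kidney and 8.99 ± 0.12 in brain. It was between 4.52 and 4.88 on the control arrays of visceral fat and spleen. On the 3 liver controls Fabp3 ran from 4.65 to 8.23, the highest being the control with muscle transcripts. Its profile was unlike that of the other genes, with a median correlation of -0.02 to them over the 7 tissues.

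In activation and the carnitine shuttle the tissue of highest level differed from gene to gene. Acsl5, which activates long-chain fatty acids, was highest in liver at 11.05 ± 0.12 and lowest in muscle at 7.14 ± 0.07. Cpt1a, the liver form of the outer carnitine palmitoyltransferase, was at 11.53 ± 0.09 in kidney and 11.29 ± 0.13 in liver, which did not differ by the test (adjusted p 0.145), and was lowest in muscle at 7.86 ± 0.11. With values as deposited or centred on medians, liver rather than kidney was highest for Cpt1a. Slc25a20, the carnitine and acylcarnitine carrier of the inner membrane, was at 9.93 ± 0.09 in liver, 9.60 ± 0.06 in visceral fat and 9.55 ± 0.20 in muscle, and neighbours in that order did not pass the test. Cpt2, which reforms acyl-CoA in the matrix, was at 10.66 ± 0.16 in visceral fat, with liver, kidney, subcutaneous fat and muscle following in steps that did not pass, and at 6.83 ± 0.29 in brain. Crat, which makes short-chain acylcarnitines, was at 11.73 ± 0.05 in muscle and 11.70 ± 0.24 in visceral fat, so close that visceral fat was highest with values as deposited or without visceral fat control 1 or 2. Crot, its peroxisomal partner for medium chains, was at 11.83 ± 0.15 in liver and 11.52 ± 0.13 in kidney.

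The acyl-CoA dehydrogenases open each turn of the spiral. Acadm, for medium chains, was at 12.40 ± 0.03 in kidney and Acads, for short chains, at 10.86 ± 0.12 in kidney, each its highest tissue, with brain lowest at 9.03 ± 0.11 and 6.29 ± 0.14. For Acads the step from kidney to visceral fat, at 10.53 ± 0.14, did not pass the test, though the arrays did not overlap. Acadl, for long chains, was at 10.89 ± 0.20 in visceral fat, and subcutaneous fat, muscle and kidney followed in steps that did not pass. Without subcutaneous fat control 19, subcutaneous fat rather than visceral fat was highest for Acadl.

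For the later steps, Hadha and Hadhb both had their highest mean in muscle, at 11.29 ± 0.17 and 11.01 ± 0.18, but neither passed against the second tissue (adjusted p 0.0575 against liver and 0.0884 against visceral fat). Over the 7 tissues their correlation was 0.88, and Hadhb ranked 9 among the 28 other genes by its correlation with Hadha. Hadha was lowest in brain at 9.17 ± 0.14 and Hadhb in spleen at 8.54 ± 0.06. Echs1, the enoyl-CoA hydratase, and Hadh, the dehydrogenase for short chains, had their highest means in visceral fat, at 11.01 ± 0.13 and 12.44 ± 0.05, and did not pass against the second tissue (adjusted p 0.299 and 0.237). Acaa2, a thiolase, was highest in liver at 12.33 ± 0.03, a step that passed. Decr1, Ech1 and Eci1, auxiliary enzymes that deal with double bonds in unsaturated chains, had their highest means in visceral fat, at 10.55 ± 0.05, 11.52 ± 0.04 and 10.60 ± 0.22, and the step to the second tissue passed for Ech1 and Eci1 and not for Decr1 (adjusted p 0.667). With arrays centred on medians, liver was highest for Decr1, Cpt2 and Etfb, the last at 12.16 ± 0.10 in visceral fat in the main scaling. Decr2, the peroxisomal dienoyl-CoA reductase, was at 11.22 ± 0.11 in liver and 10.20 ± 0.14 in kidney against 7.28 ± 0.07 in muscle.

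The 4 genes of the peroxisomal spiral had their highest mean in liver or kidney, a step that passed for 3 of them and not for Hsd17b4 (adjusted p 0.359). Ehhadh, the peroxisomal bifunctional enzyme, was at 11.70 ± 0.07 in kidney and 10.68 ± 0.11 (n = 3) in liver, against 9.76 ± 0.05 in visceral fat, 7.41 ± 0.15 in muscle and 6.45 ± 0.12 in spleen. In brain Ehhadh was at 5.69 ± 0.05, under the signal filter. Acaa1b, a peroxisomal thiolase, was at 10.27 ± 0.35 in liver and 8.58 ± 0.17 in kidney and lay among the lowest 40% of probe sets in spleen, brain and muscle. Its near-identical copy Acaa1a had a flatter profile, with 9.29 ± 0.26 in liver and 6.98 ± 0.17 in brain, and transcripts of one could hybridise to the probes of the other, so their values are uncertain. Ucp3, a mitochondrial carrier of muscle and brown fat, was at 10.61 ± 0.24 in muscle and 8.60 ± 0.38 in visceral fat and between 4.52 and 5.84 on the control arrays of liver, kidney, spleen and brain.

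After swim training few of these genes passed the test in a given tissue, and the changes were small. Of 191 gene and tissue pairs tested, 19 passed, 5 higher and 14 lower after swimming, where 11.1% of the 80148 pairs of all genes passed, so the count was close to the background. The 19 pairs belonged to 16 genes. The changes were between 0.19 and 0.76 log2 in size, and none reached 2-fold. Acadl rose in liver and fell in spleen, Fabp3 rose in kidney and fell in muscle, and Slc25a20 fell in visceral fat and spleen, while the other 13 genes with a call had it in 1 tissue each. The remaining 13 genes passed in no tissue.

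**Figure D2:**
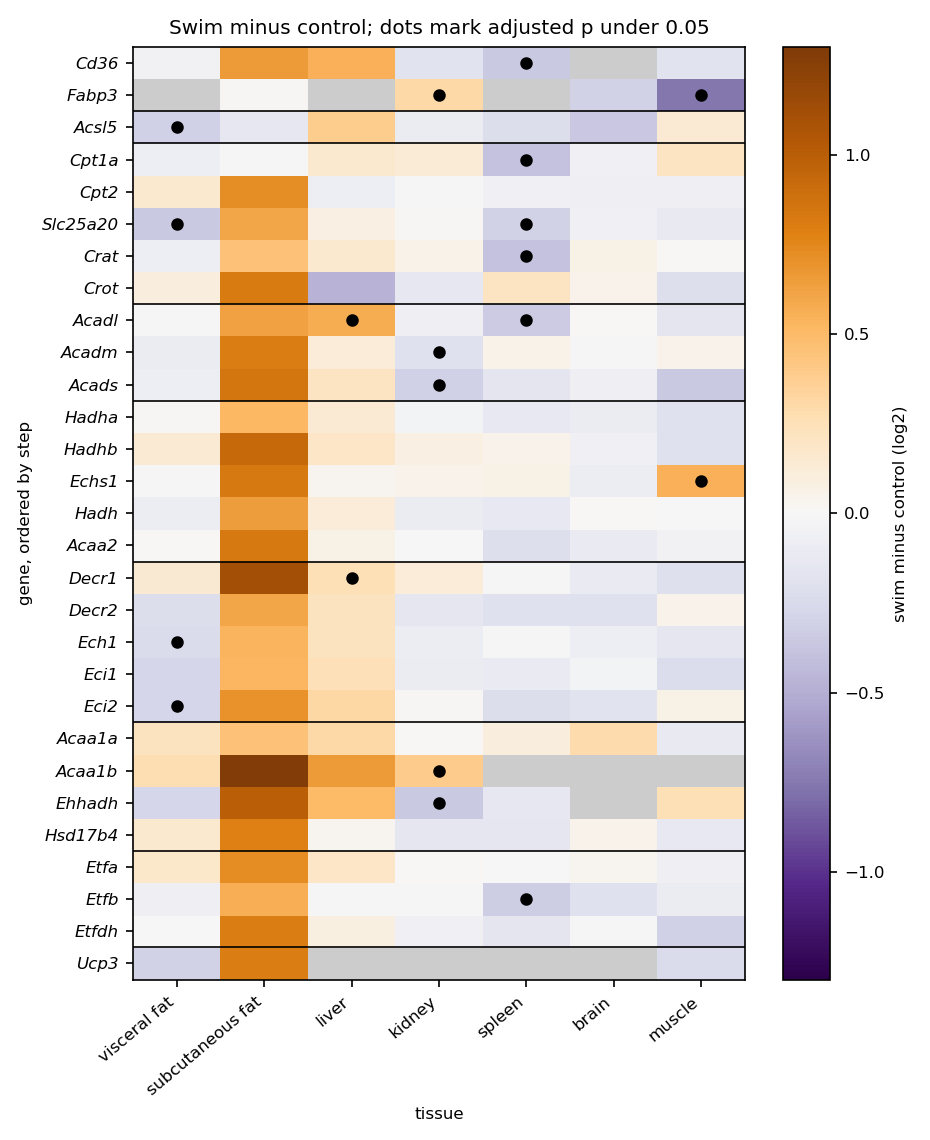
Swim minus control, in log2, for the 29 measured genes (rows, by step) in 7 tissues (columns), orange higher and purple lower after swimming. Black dots mark the 19 pairs with adjusted p under 0.05, and grey fields pairs left out by the filter on low signal; subcutaneous fat has the largest rises but no dot.

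**Figure D3:**
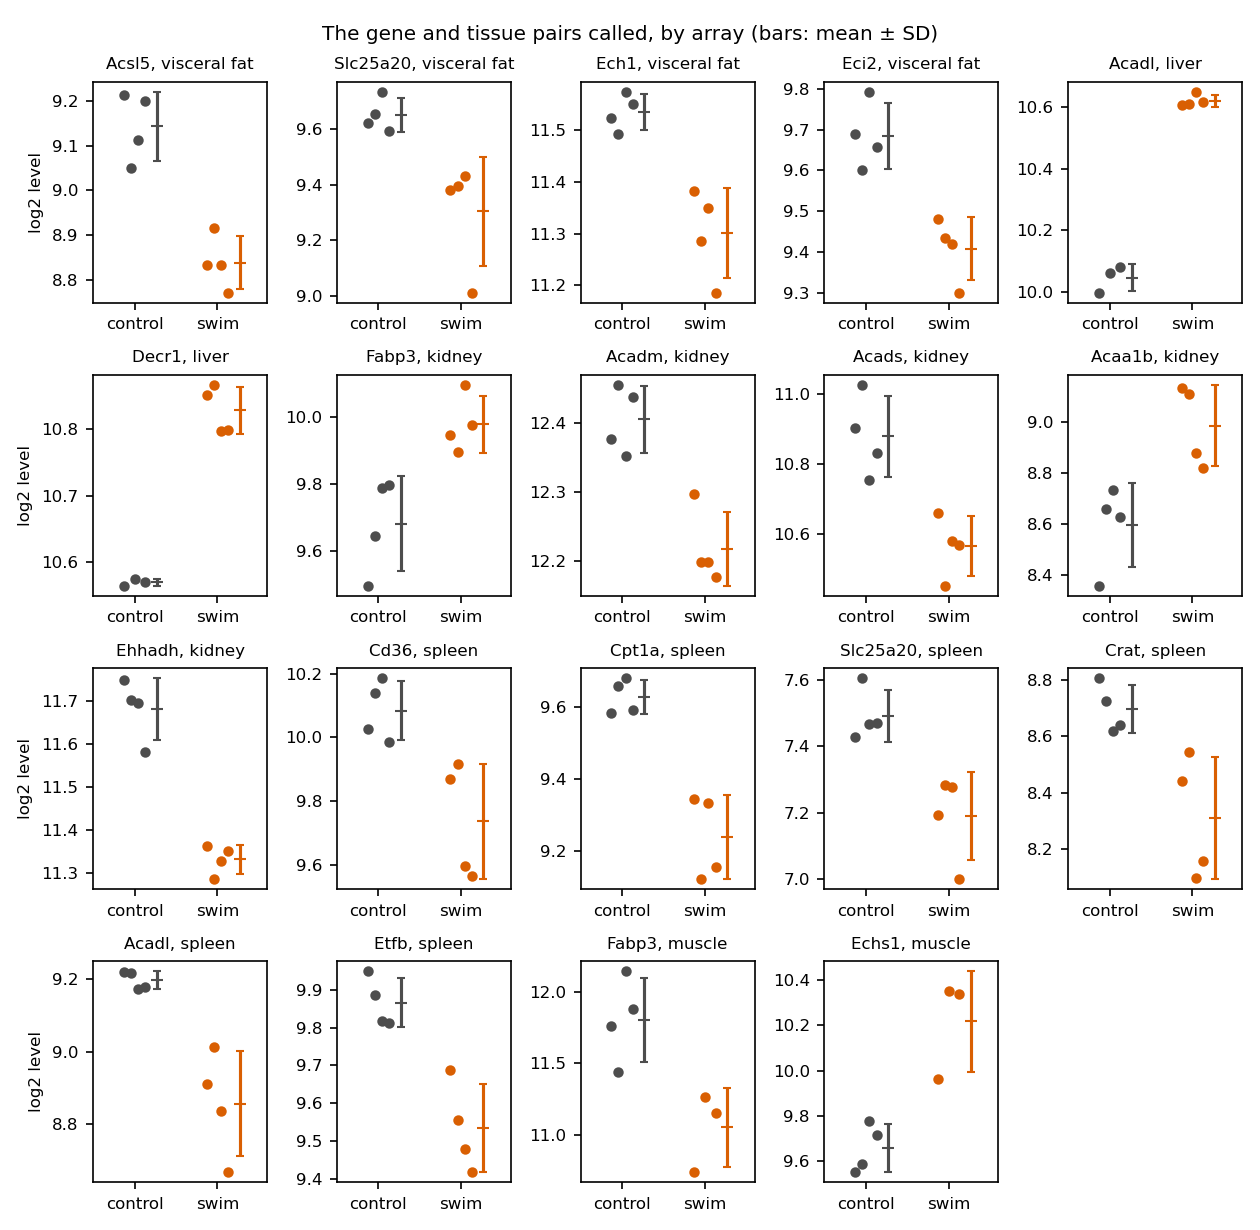
Log2 level on each array for the 19 pairs that passed, control in grey and swim in orange, with mean ± SD beside the points; each panel has its own axis, which does not start at 0. In each panel the control and swim arrays do not overlap.

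In liver, the direction was mostly upward and the calls were few. Of 27 genes tested, 2 rose and 0 fell, where 1.84% of all genes rose and 2.16% fell. The estimate was positive for 24 of the 27, with a median of 0.19 against 0.00 over all genes, and for 16 of 27 the control and swim arrays did not overlap, which held for 20.6% of all genes. Acadl was at 10.00, 10.06 and 10.08 on the 3 control arrays and 10.60, 10.61, 10.65 and 10.61 on the swim arrays. Swim arrays lay above all controls, by 0.57 ± 0.06 (SE) log2 or 1.49-fold, with an adjusted p of 0.00451, and the call held when any one array was left out. Decr1 was at 10.57, 10.58 and 10.57 in controls and 10.85, 10.87, 10.80 and 10.80 after swimming, a rise of 0.26 ± 0.06 with an adjusted p of 0.0434. The groups did not overlap, but without any one of arrays 49, 50, 52, 53, 54, 55 or 56 the adjusted p of Decr1 was between 0.0706 and 0.12, and the count of calls was 1 without array 49, 50, 54, 55 or 56.

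Other liver values did not pass. The peroxisomal genes Acaa1b and Ehhadh were higher by 0.66 and 0.50, Cd36 by 0.55, Acsl5 by 0.38 and Eci2 by 0.31, and Crot was lower by 0.47. Without control 52, the array with muscle transcripts, Acaa1b passed, and Crot passed as lower.
Genes around the pathway changed in liver as well. Of 6 measured genes of omega-oxidation and acyl-CoA thioesterases, 4 rose and 0 fell. They were Cyp4a14, a fatty acid omega-hydroxylase and PPARA target, by 3.83, Acot3 by 2.91, Acot2 by 0.87 and Acot13 by 0.32. Among 14 regulators, Ppargc1a, the coactivator of mitochondrial genes, rose by 0.82 and Sirt3 by 0.35. Of 13 other peroxisomal genes, Abcd2 rose by 1.68 and Acox2 and Acox3 fell by 0.43 and 0.33, and of 7 genes of malonyl-CoA and fuel choice Acaca rose by 0.62. Of 15 other transport and activation genes tested Lpl fell by 0.89, and 0 of 4 ketone body genes and 0 of 8 other acyl-CoA dehydrogenases passed. Macrophage markers moved alongside, with 7 of 9 lower in liver, and their part in these results was not tested.

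In kidney, 2 genes rose and 3 fell of 28 tested, where 10.8% of all genes rose and 13.6% fell, so the share of the list called was close to the background. The median over the 28 was -0.03 and over all genes 0.00. Ehhadh was at 11.75, 11.70, 11.70 and 11.58 in controls and 11.36, 11.29, 11.33 and 11.35 after swimming. The groups did not overlap, and Ehhadh fell by 0.35 ± 0.05 log2, 1.28-fold, with an adjusted p of 0.00115. Among the acyl-CoA dehydrogenases, Acads was at 10.90, 11.03, 10.76 and 10.83 in controls and 10.66, 10.45, 10.58 and 10.57 after swimming, and fell by 0.31 ± 0.07 (adjusted p 0.00872). Acadm was at 12.38, 12.46, 12.35 and 12.44 against 12.30, 12.20, 12.20 and 12.18, and fell by 0.19 ± 0.05 (adjusted p 0.0183). Swim arrays lay below all controls for both.

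Of the kidney genes that rose, Acaa1b was at 8.36, 8.66, 8.73 and 8.63 in controls and 9.13, 9.11, 8.88 and 8.82 after swimming, higher by 0.39 ± 0.10 with an adjusted p of 0.0158. Fabp3 was at 9.49, 9.64, 9.79 and 9.80 against 9.95, 9.90, 10.10 and 9.98, higher by 0.30 ± 0.08 with an adjusted p of 0.0171. Both groups were separate for each gene, and the second probe set of Fabp3 gave 0.26. The calls of Ehhadh, Acads, Acaa1b and Fabp3 held without any one array, and that of Acadm was lost without swim 15 or 16, with an adjusted p between 0.0507 and 0.0577. With intensities as deposited none of the 5 passed (adjusted p 0.9997 for each), and with arrays centred on medians 10 genes passed, 1 higher and 9 lower, where 6.33% of all genes rose and 17.7% fell.
Around the pathway in kidney, Cyp4a14 rose by 1.45 and Acot3 by 0.45 while Acot2 fell by 0.35, out of 6 genes tested. Of 14 regulators Ppargc1a and Ppara rose by 0.33 and 0.31 and Ppard fell by 1.02. Single members of other lists passed as well: Acsm5 rose by 0.23, and Lpl, Bdh1, Acad8, Amacr and Pex11a fell by 0.63, 0.33, 0.27, 0.34 and 0.15. Of 8 proximal tubule markers 3 were lower, and of 8 macrophage markers above the filter 7 were lower. Endothelial markers were higher for 3 of 8 genes in kidney, and the part of these cells was not tested.

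In spleen, 6 of 26 genes passed and all 6 were lower, where 6.97% of all genes fell and 7.04% rose. The estimate was negative for 21 of the 26, and the median was -0.14 against 0.00 over all genes. Of 5 carnitine shuttle genes, 3 fell. Cpt1a was at 9.58, 9.66, 9.68 and 9.59 in controls and 9.35, 9.12, 9.34 and 9.16 after swimming, lower by 1.31-fold, a fall of 0.39 ± 0.07 log2 with an adjusted p of 0.0109. Slc25a20 was at 7.43, 7.61, 7.47 and 7.47 against 7.19, 7.29, 7.28 and 7.001, and fell by 0.30 ± 0.07 (adjusted p 0.0304). Crat was at 8.81, 8.72, 8.62 and 8.64 against 8.44, 8.55, 8.10 and 8.16, and fell by 0.39 ± 0.10 (adjusted p 0.0392). For these shuttle genes no swim array reached the lowest control.

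The other spleen calls were single members of their steps. Cd36 was at 10.03, 10.14, 10.19 and 9.99 in controls and 9.87, 9.92, 9.60 and 9.56 after swimming, a fall of 0.35 ± 0.09 (adjusted p 0.0386). Acadl was at 9.22, 9.22, 9.17 and 9.18 against 8.91, 9.01, 8.84 and 8.67, a fall of 0.34 ± 0.07 (adjusted p 0.0208). Etfb, the beta subunit of the electron transfer flavoprotein that accepts electrons from the acyl-CoA dehydrogenases, was at 9.95, 9.89, 9.82 and 9.81 against 9.69, 9.56, 9.48 and 9.42, a fall of 0.33 ± 0.07 (adjusted p 0.0182). Swim arrays lay below controls for all 3, and for Cd36, Acadl and Etfb, as for Crat, arrays 31 and 32 were the lowest.

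The call of Cpt1a held without any one array, and that of Etfb was lost without control 25 alone (adjusted p 0.0541). Without single arrays among 25, 26 and 31, Acadl had adjusted p between 0.0522 and 0.059. Cd36 and Crat each lost the call without 25, 26, 27, 28, 31 or 32, with adjusted p up to 0.0982 and 0.101, and Slc25a20 without 25, 26, 27, 28, 29 or 31, up to 0.0764. The count of genes called was 1 without array 25, 3 without 26, 27 or 28 and 2 without 31, and without control 26, which held hepatocyte transcripts, 1 of the 3 was a rise, that of Crot. With intensities as deposited 21 genes passed as lower, where 44.5% of all genes fell and the median over all genes was -0.27.
Neutrophil markers fell in spleen for 7 of 7 genes, with a median of -2.53, macrophage markers for 7 of 9 and endothelial markers for 3 of 8. The mean of the macrophage list was 9.43 to 9.59 on control arrays and 8.70 to 9.27 on swim arrays, lowest on 31 and 32, and the part of these cells in the fall of the oxidation genes was not tested. Of the genes around the pathway, 3 passed in spleen and each was lower: Acot2 fell by 0.88, Pdk2, a kinase that restrains pyruvate oxidation, by 0.50 and the PPAR partner Rxra by 0.44.

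In visceral fat, 4 of 28 genes passed and all 4 were lower, where 12.1% of all genes fell and 11.3% rose. The share of the list that fell was close to the background, and the share that rose was below it. The median was -0.05 against -0.03 over all genes. Acsl5 was at 9.21, 9.05, 9.11 and 9.20 in controls and 8.83, 8.92, 8.83 and 8.77 after swimming, and fell by 0.31 ± 0.07 (adjusted p 0.0148), a call that held without any one array. Slc25a20 was at 9.62, 9.65, 9.73 and 9.59 against 9.38, 9.39, 9.43 and 9.01, and fell by 0.35 ± 0.10 (adjusted p 0.0329). Swim array 8 lay well below the other 3 swim arrays for Slc25a20, and swim arrays were below controls for both genes.

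The auxiliary isomerases made up the rest. Eci2 was at 9.69, 9.60, 9.79 and 9.66 in controls and 9.48, 9.44, 9.42 and 9.30 after swimming, a fall of 0.28 ± 0.07 (adjusted p 0.0252). Ech1, which shifts conjugated double bonds, was at 11.52, 11.49, 11.57 and 11.55 against 11.38, 11.29, 11.35 and 11.19, a fall of 0.23 ± 0.07 (adjusted p 0.0387). The groups were separate for both, and Eci1, of the same step, was lower by 0.28 and did not pass. The call of Ech1 was lost without 1, 2, 3, 4, 6, 7 or 8 (adjusted p up to 0.0873), of Eci2 without 3, 4, 7 or 8 (up to 0.0611) and of Slc25a20 without 1, 2, 3 or 4 (up to 0.072). The number of calls was 2 without array 3, 1 a rise of Acaa1b, 1 without array 4 and 2 without array 8. With arrays centred on medians 25 genes passed, all lower, with a median of -0.47 against -0.22 over all genes, of which 39.4% fell, and with intensities as deposited 0 passed.
Around the pathway in visceral fat, Acaca, which makes malonyl-CoA, rose by 0.72 and Pdk4, which restrains pyruvate oxidation, fell by 0.48. Of 13 regulators tested 3 rose and 0 fell, Ppara by 0.37, Lpin1 by 0.37 and Esrra by 0.43. Fabp5 rose by 0.76, and Acsl4, Plin5, Acad8, Amacr and Pecr fell by 0.36, 0.52, 0.29, 0.67 and 0.31. Endothelial markers were higher for 6 of 8 genes and macrophage markers for 2 of 9, and their part was not tested.

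In muscle, 1 gene rose and 1 fell of 28 tested, where 5.68% of all genes rose and 5.68% fell. Echs1 was at 9.55, 9.59, 9.78 and 9.72 in controls and 9.96, 10.35 and 10.34 after swimming. Every swim array lay above the controls, by 0.56 ± 0.11 log2 or 1.47-fold, with an adjusted p of 0.0236. Fabp3 was at 11.76, 11.44, 12.15 and 11.88 in controls and 10.74, 11.26 and 11.16 after swimming. It fell by 0.76 ± 0.18, 1.69-fold, with an adjusted p of 0.0377, the largest change among the 19 pairs called, and its second probe set gave -0.80.
The call of Echs1 was lost without 41, 44, 46 or 47 (adjusted p up to 0.0869) and that of Fabp3 without 41, 43, 44, 45, 46 or 47 (up to 0.0831), so the count was 0 without 41, 44, 46 or 47 and 1 without 43. Without control 42 and swim 45, the arrays low in slow fibre markers, both passed, Echs1 with 0.66 and Fabp3 with -0.72. Within the swim arrays Fabp3 was lowest on 45, and within the controls on 42. Echs1 lost its call with intensities as deposited, where it was higher by 0.27 and the median of all genes was -0.23, and with arrays centred on medians.

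**Figure D4:**
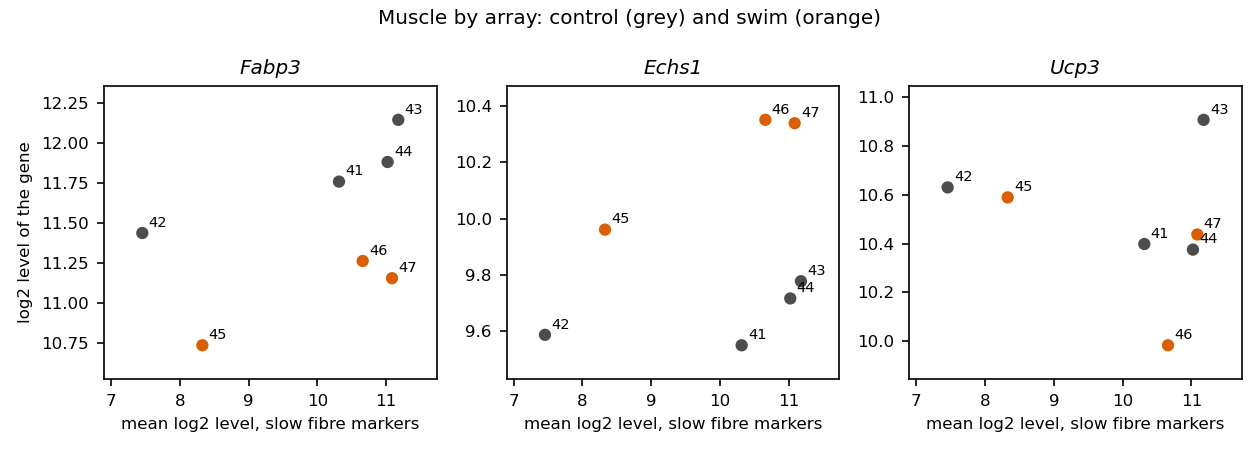
Log2 level of Fabp3, Echs1 and Ucp3 (vertical axes, each with its own scale) against the mean log2 level of 8 slow fibre markers (horizontal axis) on 7 muscle arrays, control in grey and swim in orange, with array numbers. Arrays 42 and 45 have the lowest slow fibre means, 7.46 and 8.33; Fabp3 is lower and Echs1 higher on each swim array than on any control.

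The other 26 genes did not pass in muscle, and their estimates ran from -0.35 for Acads to 0.26 for Ehhadh. Ucp3 was at 10.40, 10.63, 10.91 and 10.38 in controls and 10.59, 9.98 and 10.44 after swimming, and the groups overlapped. Around the pathway in muscle, Acaca rose by 1.57 and Pdk4 fell by 0.95, and of 14 regulators Nrip1, a corepressor of oxidative genes, rose by 0.57 while Sirt3, Esrra and Tfam fell by 0.51, 0.35 and 0.27. Fabp5, Ivd and Acad10 rose by 0.88, 0.37 and 0.45, and Acot2 and Acad8 fell by 0.81 and 0.34. White adipocyte markers averaged 8.61, 7.10, 8.43 and 8.28 on the muscle controls and 8.15, 9.43 and 9.12 on the swim arrays, highest on 46 and 47, where Echs1 was highest too. Brown fat markers averaged 8.15, 7.44, 7.59 and 8.06 on the muscle controls and 7.35, 8.64 and 8.98 on the swim arrays, also highest on 46 and 47. Endothelial markers were higher for 3 of 8 genes and macrophage markers lower for 3 of 8, and the part of these cells was not tested.

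In subcutaneous fat no gene passed, and the background was 0% higher and 0% lower over all genes. At an unadjusted p under 0.05 there were 15 of 29 genes, against 21.55% of all genes. The estimates were positive for 27 of 29, with a median of 0.69 against 0.05 over all genes, and for 5 of the 29 the arrays did not overlap, against 9.07% of all genes. Acadm was at 11.57, 11.35, 10.54 and 10.68 in controls and 11.89, 12.09, 11.66 and 11.73 after swimming, Acaa1b at 7.09, 6.07, 5.39 and 6.08 against 7.21, 8.41, 6.94 and 7.23, and Acaa2 at 10.92, 11.13, 9.85 and 10.23 against 11.48, 11.59, 11.06 and 11.31. They had the smallest p in the list, with estimates of 0.81, 1.29 and 0.83. Swim arrays lay above controls for Acadm, and overlapped with them for Acaa1b and Acaa2.
The mean over the list was 10.07, 9.77, 8.88 and 9.26 on control arrays 17 to 20 and 10.19, 10.35, 9.95 and 10.10 on swim arrays 21 to 24. White adipocyte markers averaged 12.35, 11.57, 10.87 and 11.43 on the controls and 12.39, 11.55, 12.15 and 12.27 on the swim arrays, and controls 18 to 20 carried the B cell transcripts given above. Brown fat markers averaged 7.73, 9.84, 7.41 and 7.78 on the controls and 8.65, 9.62, 8.66 and 9.76 on the swim arrays. Control 17 had the highest mean of the controls for adipocyte markers and for the oxidation genes and the lowest for B cell markers. Without it 21 of the 29 genes passed, all higher, where 18.1% of all genes rose and 16.4% fell. With array weights 14 rose, where 27.6% of all genes rose and 21.9% fell. Without swim arrays 22 and 23 none passed, of these or of all genes. The part of these cell types in the result was not tested.

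**Figure D5:**
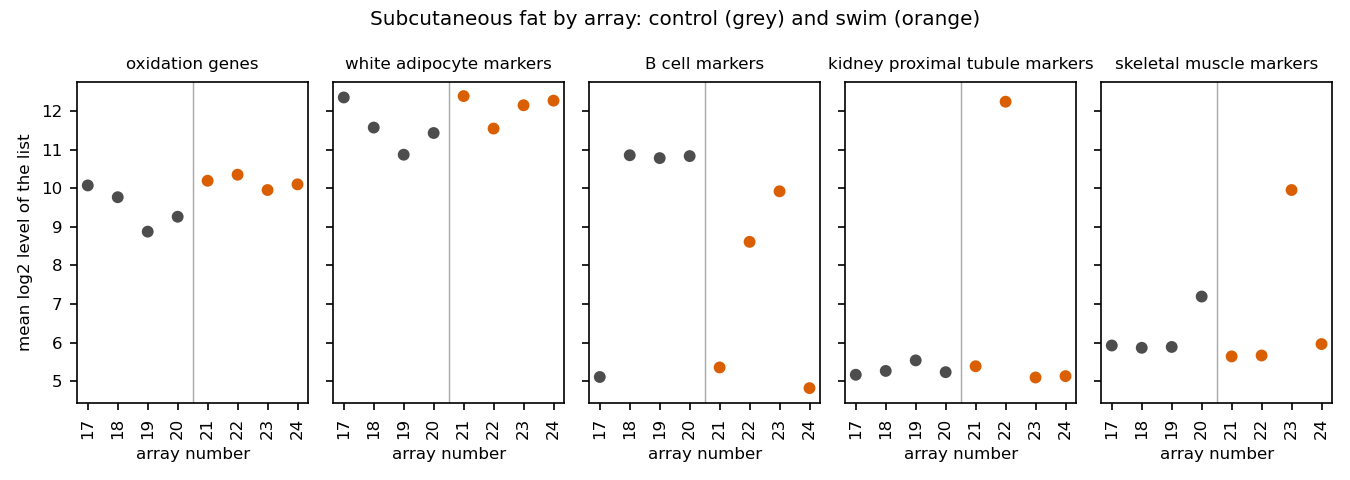
Mean log2 level, by array, of the 29 oxidation genes and of white adipocyte, B cell, kidney proximal tubule and skeletal muscle markers in subcutaneous fat, control arrays 17 to 20 in grey and swim arrays 21 to 24 in orange. Control 17 and swim arrays 21 and 24 have low B cell means, swim 22 has a kidney tubule mean of 12.24, and the oxidation genes are lowest on control 19.

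For the peroxisomal gene Ehhadh, swim array 22 was at 10.68 against 9.10 to 9.19 on the other swim arrays, and this was the array with kidney transcripts, the tissue of highest Ehhadh level. Swim array 22 was also the highest swim array for Crot at 10.44, Cpt1a at 10.86, Fabp3 at 9.18 and Acaa1b at 8.41. This did not hold for every gene, and Cd36 was lowest on it among the swim arrays, at 12.19. Hadha and Hadhb, the head-to-head pair, were higher by 0.51 and 0.93 in subcutaneous fat, and in the other tissues lay between -0.19 and 0.19, with no call for either. Of 59 genes of the pathway lists tested in subcutaneous fat 0 passed, and their lists had medians from 0.52 to 0.90.

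In brain no gene passed of 25 tested, where 0.43% of all genes rose and 0.0516% fell. At an unadjusted p under 0.05 there were 5 of 25, against 16.33% of all genes. Decr2 was at 8.76, 8.83, 8.82 and 8.68 in controls and 8.59, 8.62, 8.65 and 8.49 after swimming, the 1 gene of 25 whose arrays did not overlap, which held for 12.1% of all genes. Fabp3 was at 9.14, 9.16, 8.96 and 8.99 against 8.72, 8.98, 8.83 and 8.53, and Acaa1a at 7.10, 7.35, 7.44 and 7.15 against 7.67, 7.35, 7.57 and 7.58, and for each the groups overlapped. With array weights 7 genes passed, 6 lower and 1 higher, where 15.3% of all genes fell and 11.6% rose. Brain control 36 held some muscle transcripts, with a mean of 7.62 for skeletal muscle markers against 5.83 to 6.28 on the other brain arrays.

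Whether a gene's response to swimming differed between tissues was tested with limma's F test over the 7 tissues. Of 29 genes, 21 passed, where 40.7% of all 14847 genes passed. On simulated data this test also called many genes that had not been changed, well beyond the share its threshold allows, so the 21 are candidates and not a count of genes that differ. A form of the test that gives each tissue its own spread made fewer such calls, though still too many. Added after the data were seen, it passed 20 genes, 18 of them in both, against 36.28% of all genes. In limma's F test Ehhadh had the smallest p (adjusted p 0.000296). Its changes were 0.99 in subcutaneous fat, 0.50 in liver and 0.26 in muscle. They were -0.12 in brain, -0.14 in spleen, -0.28 in visceral fat and -0.35 in kidney. Echs1, with 0.56 in muscle and 0.83 in subcutaneous fat against -0.08 to 0.07 elsewhere, and Crot, with -0.47 in liver and 0.82 in subcutaneous fat, followed. Acadl had 0.57 in liver and -0.34 in spleen (adjusted p 0.000753). Without subcutaneous fat 15 genes passed, and with intensities as deposited 10. The share of all genes passing in these runs is not given here, so neither count is set against a background.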

How the data were processed

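The deposited values are linear intensity per probe set. PLIER and limma are named in the submitters' processing notes, and their versions and settings and the genome build behind the probe sets are not given in the sources used here. Probe sets numbered 25917, of which 21086 had 1 gene symbol and were used, 1867 had several and 2964 had none.

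Intensities were taken to log2(signal + 16) and quantile-normalized tissue by tissue. A filter removed the 40% of probe sets with the lowest mean signal, and a gene with several probe sets was represented by the brightest. Swim and control arrays of each tissue were compared with limma 3.58.1 in R 4.3.3 (lmFit, eBayes) with Benjamini-Hochberg adjustment over all genes tested in that tissue. For levels at rest, the 27 control arrays were normalized together and tested with limma's F test and in 21 tissue pairs. Differences in response between tissues used limma's F test with weights per tissue. The scripts were tested on simulated data. The between-tissue F test made many false calls there, fewer with a separate spread for each tissue, and the test in subcutaneous fat missed most changes of the sizes simulated. The number of arrays, 3 or 4 a group, limits the precision.

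Genes named with values on each array passed in that tissue, or had the 3 smallest p where none did; a few values named beside them were chosen after they were seen. Pathway genes are named where they passed, at most 4 a list and tissue. The genes and lists were chosen with earlier results of these data known. Alternatives were other scalings, pseudocounts, filters, probe set rules and variance models, and leaving out arrays; the between-tissue test with a separate spread for each tissue and the muscle fit without arrays 42 and 45 were added after seeing the data. The build behind the probe sets is not given, so coordinates belong to the RefSeq windows on GRCm38.p6. Figures were drawn with matplotlib 3.10.9.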

Additional observations from a re-analysis of the deposited data

Results flagged for a closer look

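In groups of 4 arrays, 14 of 327 gene and group combinations had 1 array far from the other 3, 4.28%, where chance gives about 5%. In visceral fat these were Slc25a20 on swim 8, at 9.01 against 9.38 to 9.43, Crot on control 3, at 9.11 against 9.28 to 9.31, Hadhb on control 1, at 10.56 against 10.66 on the others, Hsd17b4 on control 3, at 10.88 against 10.72 to 10.74, and Etfa on swim 8, at 11.16 against 10.89 to 10.90. In subcutaneous fat they were Crot on control 17, at 9.10 against 8.43 to 8.52, the control with few B cell transcripts, and Ehhadh on swim 22, at 10.68 against 9.10 to 9.19, the array with kidney transcripts. In kidney they were Acsl5 on swim 14, at 9.42 against 9.26 to 9.29, Ech1 on swim 13, at 11.16 against 10.96 to 10.98, and Etfb on swim 16, at 12.05 against 12.07 on the others.

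Crot, highest at rest in liver, stood out in spleen on control 26, at 8.63 against 8.36 to 8.37, the spleen array highest in hepatocyte transcripts. In muscle Crot was at 9.63 on control 42 against 9.36 to 9.39 on the other controls. Control 42 was the muscle array lowest in slow fibre markers. It also had the highest hepatocyte marker mean of the muscle controls, 7.92 against 5.64 to 6.67. The muscle swim array with the highest such mean, 7.96, had Crot at 9.22, between 9.07 and 9.39 on the other swim arrays. The part of either feature in the Crot level was not tested. In brain the genes that stood out were Acads on control 35, at 6.80 against 6.47 to 6.53, and Etfdh on swim 38, at 8.07 against 8.15 to 8.16.

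The response to swimming passed limma's F test for a difference over the 7 tissues for 21 genes, a test that on simulated data called many unchanged genes too. Among uptake, activation and shuttle genes the adjusted p was 0.0111 for Cd36, 0.0392 for Acsl5, 0.0137 for Cpt1a, 0.0217 for Slc25a20, 0.0108 for Crat and 0.000666 for Crot. Among acyl-CoA dehydrogenases it was 0.000753 for Acadl, 0.0106 for Acadm and 0.00467 for Acads. For the later steps it was 0.0423 for Hadha, 0.0256 for Hadhb and 0.000657 for Echs1. For auxiliary enzymes it was 0.00499 for Decr1, 0.00554 for Decr2, 0.0307 for Ech1, 0.0335 for Eci1 and 0.00322 for Eci2. For peroxisomal genes it was 0.000296 for Ehhadh and 0.00467 for Hsd17b4, and for electron transfer 0.00103 for Etfb and 0.0065 for Etfdh. With a separate spread for each tissue Crat, Hadhb and Etfdh did not pass, and Fabp3 and Acaa1b passed.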

How the results depend on the processing

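The counts of genes called within a tissue changed with the processing, and the cause was not tested. Where no share of all genes is given with a count, here or above, the count does not set the list apart from all genes. With intensities as deposited the count was 0 in visceral fat and kidney, 21 in spleen, 1 in muscle and 10 between tissues. With arrays centred on medians it was 25 in visceral fat, 4 in liver, 10 in kidney and 13 in spleen. With 1 fit of all arrays and a common spread it was 0 in visceral fat, liver and kidney, 26 in subcutaneous fat, and 1 in spleen and muscle. With array weights it was 14 in subcutaneous fat, 5 in liver, 7 in brain and 4 in muscle. Without the filter on low signal it was 1 in liver, 3 in spleen and 1 in muscle. In liver it was 1 with a pseudocount of 1, 7 with 64, and 6 with a trended, robust variance.

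Leaving out 1 array at a time gave counts of 1 to 4 in visceral fat, 0 to 21 in subcutaneous fat, 1 to 3 in liver, 4 to 6 in kidney, 1 to 7 in spleen, 0 in brain, 0 to 2 in muscle and 17 to 25 between tissues. At rest 29 genes passed in every alternative run. Over 321 alternative fits of the 19 called pairs, 227 passed with the same sign, 94 kept the sign without passing, and 0 reversed. These pairs were picked for passing in the same data and had groups that did not overlap, so a kept sign is not independent evidence. No paired analysis was possible because array numbers are not shared between groups. With 3 or 4 arrays a group, a change that missed the threshold is not shown to be absent.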
